A study of Mus musculus with 4 samples.

Results

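The cytosolic ribosomal protein genes of the mouse were examined in crosslinking data for PTBP1 (polypyrimidine tract binding protein 1), which binds stretches of C and U in RNA and regulates splicing. The set holds 49 genes, 30 of the large ribosomal subunit (Rpl and Rplp genes) and 19 of the small subunit (Rps genes and Rpsa). A strand was known for 48 of them, all but Rps27a, of 29560 protein-coding and long non-coding RNA genes with a known strand in all. A cluster, a stretch of RNA in which crosslinked reads pile up, was assigned to a gene when its midpoint lay in the GRCm38 span of the gene on the strand of the gene. This gave 146 of 376266 clusters in replicate 1 and 144 of 388894 in replicate 2. The assay was enhanced crosslinking and immunoprecipitation (eCLIP) on whole hearts of WT C57BL/6 mice, with frozen tissue ground, crosslinked with ultraviolet light and trimmed with RNase. The immunoprecipitates were IP5 replicate 1 and IP6 replicate 2, and each was set against the size-matched input taken from the same lysate (Input 5 and Input 6), RNA that passed through the same gel cut without antibody selection. All 4 samples came from wild-type tissue, so no PTBP1-deficient tissue is part of the comparison. The labels do not say whether the 2 lysates are from separate animals, and their spread may therefore be purely technical.

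Each cytosolic ribosome is built from ribosomal RNA and a fixed set of proteins, so their genes are transcribed at high and matched rates in nearly every cell. The mRNAs of these genes begin with a pyrimidine-rich tract, the 5′ terminal oligopyrimidine motif, through which growth signals control their translation. Their introns often carry small nucleolar RNAs (snoRNAs), which are cut out of the spliced introns and guide chemical modification of ribosomal RNA. H/ACA snoRNAs guide pseudouridylation and C/D snoRNAs guide 2′-O-methylation.

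Since PTBP1 binds pyrimidine tracts, the tracts around the start sites are shown before the folds. RefSeq promoter sequences on GRCm38.p6 were found for 39 of the 49 members. In each, the longest run of C and T that overlapped the 10 bases on either side of the annotated start was measured. A run of at least 8 bases was present in 17 of 39 members (43.6%), against 2391 of 17492 protein-coding promoters (13.7%). The large subunit genes had such a run in 10 of 23 cases, and the small subunit genes in 7 of 16. The letters TCTT, a core of the sequences PTBP1 binds, stood in the first 50 bases after the start, on the sense strand, in 16 of 39 members (41.0%), against 3069 of 17492 promoters (17.5%). A match describes the letters and is not a measured site. The following 30-base windows, from 10 bases before the start to 20 bases from it, show members with a cluster close to the start (Rpl28, Rps24, Rps9, Rps25, Rps23) and members with a long tract but no cluster within 200 nt of the start (Rpl35, Rpl15, Rpl14, Rps6). They are the RefSeq DNA written 5′ to 3′ on the strand of the gene, and capitals mark the longest run of C and T as far as it lies in the window.
Rpl28, chr7:4792955-4792984, plus strand: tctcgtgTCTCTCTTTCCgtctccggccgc
Rpl35, chr2:39005112-39005141, minus strand: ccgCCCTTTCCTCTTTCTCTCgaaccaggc
Rpl15, chr14:18270967-18270996, minus strand: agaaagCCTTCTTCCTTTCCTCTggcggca
Rpl14, chr9:120571507-120571536, plus strand: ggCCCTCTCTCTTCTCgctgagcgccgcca
Rps24, chr14:24490668-24490697, plus strand: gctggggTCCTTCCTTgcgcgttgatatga
Rps9, chr7:3704031-3704060, plus strand: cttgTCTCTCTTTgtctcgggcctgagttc
Rps25, chr9:44407704-44407733, plus strand: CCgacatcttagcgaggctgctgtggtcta
Rps23, chr13:90923112-90923141, plus strand: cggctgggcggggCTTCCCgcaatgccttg
Rps6, chr4:86857348-86857377, minus strand: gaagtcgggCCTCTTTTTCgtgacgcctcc
The run was 18 bases in Rpl35, 17 in Rpl15, 14 in Rpl14, 11 in Rpl28, 10 in Rps6 and 9 in both Rps24 and Rps9. In Rps23 it was 6 bases. In Rps25 a run of 14 bases ended just inside the window.

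No cluster in these ribosomal protein genes was enriched in the PTBP1 immunoprecipitates, and most had lower signal there than in the inputs. Every fold below is the authors' own log2 fold of an immunoprecipitate over its own input, taken from the authors' deposited tables, and how many reads each cluster holds is unknown. An enriched cluster, in which both the log2 fold and the −log10 p were 3 or more, was found in 0 of 146 member clusters in replicate 1, where 6.31% of all clusters were enriched. In replicate 2 it was found in 0 of 144, where 4.71% of all clusters were enriched. The members are short (spans of 1228 to 9647 nt, median 3352 nt), so all genes of that span range are the background closer in length. Of their clusters 291 of 8905 were enriched in replicate 1 and 198 of 9122 in replicate 2. The deposited −log10 p was exactly 0 for 136 of 146 member clusters in replicate 1 and for 134 of 144 in replicate 2. It reached at least 1 in 3 clusters of replicate 1 and in 0 of replicate 2, and its highest value was 2.75, in Rpl5. The deposited −log10 p is 0 wherever the fold is below 0, so no deposited p bears on depletion. A reproducible cluster, enriched in both replicates with an overlap, was present in 0 of the 41 members that had clusters in both replicates, against 24.9% of all genes with clusters in both. Of the genes of the same span range with clusters in both, 88 of 2365 had one (3.72%).

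Folds far below 0 were common. A log2 fold of −3 or lower was recorded for 80 of 146 member clusters (54.8%) in replicate 1, against 0.781% of all clusters, and for 70 of 144 (48.6%) in replicate 2, against 0.597%. In genes of the same span range the share was 9.78% in replicate 1 and 7.72% in replicate 2. A fold below 0 was recorded for 129 clusters (88.4%) in replicate 1 and 124 (86.1%) in replicate 2, against 55.3% and 58.0% of clusters in genes of the same span range and 26.9% and 28.2% of all clusters placed in genes. Taking the median fold of the clusters of each gene, the median over the 41 members was −3.51 in replicate 1 and −2.97 in replicate 2. The same value over all 13694 genes with clusters in both was 0.36 and 0.20, and over the 2365 genes of the same span range it was −0.38 in both replicates. The gene median was below 0 in both replicates in 37 of 41 members, against 1130 of the 2365 genes of the same span range and 22.5% of all genes. When the 13694 genes were ordered by the mean of their gene medians, 17 of the lowest 100 were members, although members made up 0.299% of the genes ordered. Folds that at least 1000 clusters of a table share to the last digit made up 19.2% of member clusters in replicate 1 and 20.8% in replicate 2, against 74.4% and 76.0% of all clusters. The differences in this paragraph were not tested, since genes and clusters of the same lysates are not replicates. With 2 lysates no exact two-sided test over samples can give a p below 0.5.

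**Figure D1:**
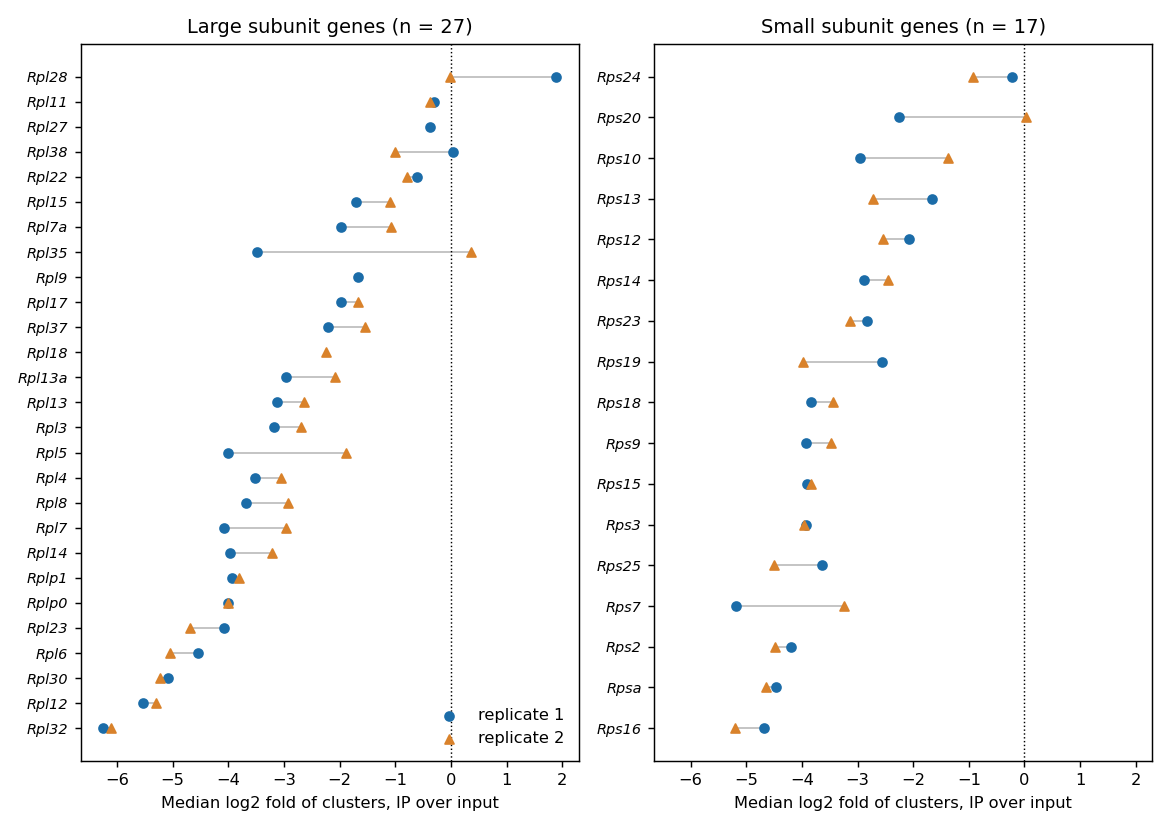
Median log2 fold (immunoprecipitate over input) of the clusters of each member in replicate 1 (circles) and replicate 2 (triangles), large subunit genes on the left and small subunit genes on the right, ordered by the mean of the replicates. The dotted line marks a fold of 0, and a gene with 1 symbol had clusters in 1 replicate. Rpl32 is lowest at −6.25 and −6.11, and Rpl28 is highest at 1.89 and −0.01.

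More of the members than of other short genes had clusters. Those other genes include long non-coding RNA genes and were not matched to the members for expression. The members had 0.768 clusters per kb of span in replicate 1 and 0.757 in replicate 2, against 0.185 and 0.190 per kb in the other genes of the same span range, with genes without clusters counted. Clusters were found in both replicates for 41 of 49 members (24 large, 17 small), against 2365 of 9603 genes of the same span range. Among the genes with clusters in both, the median was 3 clusters per gene in the members and 3 in the genes of the same span range. Rps24 had the most (11 and 8), followed by Rpl4 (9 and 7), Rpl23 (6 and 8), Rpl13a (9 and 5), and then Rps3 and Rpl22, both with 13 over the replicates. Clusters were absent in both replicates from 5 members, namely Rpl10a, Rpl19, Rpl24, Rps6 and Rps27a. For Rps27a, whose strand was not set, the span held 0 clusters on either strand in both replicates. Rps6 encodes the small subunit protein phosphorylated by S6 kinases, and Rps27a encodes a small subunit protein made as a fusion with ubiquitin. A further 3 members had clusters in 1 replicate, all with folds below 0. Rpl18 had −4.10 and −0.38 in replicate 2, Rpl9 had −2.70 and −0.64 in replicate 1, and Rpl27 had −0.38 in replicate 1. Reads from a gene and from its processed pseudogenes can be confused, and the placement of such reads by the authors is not given in the sources used here. Values of members with such copies are uncertain to that extent. The annotation names 192 pseudogenes after 39 of the members. A cluster lay in 17 of them in replicate 1 and in 19 in replicate 2. Of the 23 named after the members without clusters, 2 had a cluster in replicate 1 and 4 in replicate 2. Rpl24 has no pseudogene named after it, and the part of such copies in these values was not tested. On the opposite strand of the member spans there were 6 clusters in replicate 1 and 3 in replicate 2, and 0 were enriched.

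Large and small subunit genes differed by about as much as the replicates did. Over 24 large subunit genes the median of the gene medians was −3.50 in replicate 1 (SD over genes 1.88, range −6.25 to 1.89) and −2.67 in replicate 2 (SD 1.80, range −6.11 to 0.36). Over 17 small subunit genes it was −3.64 (SD 1.25, range −5.18 to −0.23) and −3.44 (SD 1.40, range −5.20 to 0.03). The difference, large minus small, was 0.14 in replicate 1 and 0.77 in replicate 2, with a mean of 0.46 ± 0.44 (SD, n = 2 replicates). Medians were below 0 in both replicates in 21 of 24 large subunit genes and in 16 of 17 small subunit genes. Among genes with at least 3 clusters in both replicates, 11 large and 10 small, the difference was −0.21 in replicate 1 and 0.31 in replicate 2. Without clusters that overlap a snoRNA gene it was 0.68 and 1.10.

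Genes of the large subunit stalk had folds below 0 throughout. The stalk recruits translation factors, and Rplp0 and Rplp1 encode its acidic proteins while Rpl12 encodes a protein of its base. The 4 clusters of Rplp0 in replicate 1 lay at −4.23 to −2.30, and the 3 in replicate 2 at −4.26 to −2.48. In Rplp1 the gene median was −3.93 in replicate 1 and −3.81 in replicate 2, from 2 clusters each. Rpl12 stood lower, at −5.53 and −5.31, from 1 cluster per replicate that overlapped the snoRNA gene Snora65.

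Rpl5 and Rpl11 encode proteins that bind 5S rRNA and can also hold back Mdm2, the ubiquitin ligase for p53. Unlike the stalk genes, both had a cluster above 0 in replicate 1. The gene median of Rpl5 was −4.00 in replicate 1, close to the −4.01 of Rplp0, and −1.89 in replicate 2. Its clusters fell into separate ranges: the 3 over snoRNA genes were between −4.71 and −4.00 in replicate 1 and between −5.52 and −4.28 in replicate 2. The others had a median of 1.07 in replicate 1 and 0.62 in replicate 2. They included the highest fold of any member cluster in replicate 1, 2.26 at chr5:107906007-107906167 with a −log10 p of 2.75. The overlapping cluster of replicate 2, chr5:107905998-107906122, had a fold of 1.08 and a −log10 p of 0.66. Rpl11 had clusters at 1.36 and −1.96 in replicate 1 and at −0.38 in replicate 2, and none of them overlapped between the replicates. All of these Rpl11 folds are values that at least 1000 clusters of a table share.

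Other large subunit genes spanned the whole range. Rpl3, whose protein reaches toward the peptidyl transferase centre, had clusters at −4.26, −3.63, −2.75 and −1.55 in replicate 1 and at −4.10, −2.70 and −0.38 in replicate 2. Its paralogue Rpl3l, expressed in heart and skeletal muscle, stood on the other side of 0: the gene median of Rpl3 was −3.19 in replicate 1 and −2.70 in replicate 2, against 1.82 (3 clusters) and 2.21 (4 clusters) for Rpl3l. Rpl4 and Rpl23 encode a protein lining the exit tunnel and one at the face between the subunits. The gene median of Rpl4 was −3.51 in replicate 1 and −3.05 in replicate 2, with single clusters from −4.38 to 1.21. Rpl23 had a gene median of −4.07 and −4.68, with clusters from −5.70 to 0.62. Rpl13a, whose protein also takes part in a complex that represses translation of inflammatory mRNAs, had −2.96 and −2.07, and all its clusters were below 0.

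Of the 6 lowest and the 6 highest gene medians, 4 each belonged to large subunit genes. After Rpl32 (−6.25 and −6.11) and Rpl12, the lowest medians were those of Rpl30 at −5.08 and −5.23, Rps16 at −4.68 and −5.20, Rpl6 at −4.55 and −5.05, and Rpsa at −4.46 and −4.65. In yeast the Rpl30 protein binds its own transcript and blocks its splicing. All 6 of these genes host a snoRNA gene with a cluster, as do 20 of the 49 members in all. The medians of Rpl32 and Rpl12 come from clusters over snoRNA genes alone, as does that of Rps16 in replicate 2. Such clusters were 1 of 2 in Rpl30 and Rpl6 in both replicates, and 3 of 4 and 7 of 8 in Rpsa. These low medians are thus in large part folds over snoRNA genes. At the other end, Rpl28 had 2 clusters in replicate 1, at 1.54 and 2.25, but 0.36 and −0.38 in replicate 2. The fold of 0.36 is a value that 25283 clusters of replicate 2 share. Rpl22, needed for T cell development in mice, had 7 clusters in replicate 1, from −3.16 to 0.21, and 6 in replicate 2, from −1.81 to 0.03. Rpl38, whose loss in mice alters translation of Hox mRNAs, had 1 cluster at 0.04 in replicate 1 and 2 at −1.38 and −0.64 in replicate 2. Apart from Rpl28 and Rpl11, neighbours at either end of the order differed by less than the spread between replicates, which had an SD of 1.05 over the 41 genes.

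Among the small subunit genes, Rps3, Rps9 and Rps2 encode proteins that surround the mRNA where it enters. Their medians were near those of members with other roles, such as Rps15 (−3.90 and −3.84) and Rplp0 (−4.01 and −4.00). Rps3 had medians of −3.93 and −3.97, with all 6 and 7 clusters between −4.13 and −3.34. Rps9 had −3.93 and −3.47 with 5 clusters in both replicates, and Rps2 had −4.19 and −4.48. Rps23, of the decoding centre, had −2.83 and −3.14. Rpsa, first described as a laminin receptor precursor, had 4 clusters in replicate 1 between −5.59 and −3.18 and 8 in replicate 2 between −5.41 and −3.51. All clusters of Rps3, Rps9, Rps2, Rps23 and Rpsa were below 0.

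By the mean of both gene medians, Rps24 and Rps20 were the small subunit genes nearest to input. In replicate 1 alone, Rps13 (−1.67) and Rps12 (−2.07) were nearer to it than Rps20. The 11 clusters of Rps24 in replicate 1 ran from −3.84 to 2.04 and its 8 clusters in replicate 2 ran from −3.38 to 1.84. Its gene medians were −0.23 and −0.93. Transcripts of Rps24, which is mutated in Diamond-Blackfan anaemia in humans, are alternatively spliced near the 3′ end. An overlapping pair of Rps24 clusters, at 0.74 (chr14:24494607-24494730) and 0.68 (chr14:24494592-24494730), was above 0 in both replicates. So was a pair at 0.50 and 1.84, values that 3500 clusters of replicate 1 and 4897 of replicate 2 share. The fold of 1.84, with a −log10 p of 0.48, was the highest member fold of replicate 2, also reached in Rps20. Rps20, of the head of the small subunit, had medians of −2.25 and 0.03. Its clusters lay far to both sides of 0, and 0.03 is the fold of its middle cluster, a value that 30730 clusters of replicate 2 share. A Rps20 pair near the 3′ end was at 1.36 and 1.20, values that 9295 clusters of replicate 1 and 11085 of replicate 2 share. The pair over the first 200 nt of Rps20 was at −5.11 and −5.55. Folds above and below 0 thus lay in the same gene, but the highest −log10 p of any cluster in Rps24 or Rps20 was 0.65.

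The same sites had low folds in both replicates. Of the replicate 1 member clusters, 100 overlapped a member cluster of replicate 2. Across these pairs the folds had a Pearson r of 0.914 and a Spearman rho of 0.900, given as a description, since clusters of a gene share a transcript and all of them share a lysate. The difference, replicate 1 minus replicate 2, had a median of −0.14 and an SD of 0.84, and 80 of 100 pairs were within 1 of each other. Both folds were below 0 in 86 pairs and at or below −3 in 53. Both were above 0 in 7 pairs, which lay in Rpl5, Rpl28, Rpl4, Rpl7a and Rps20 once each and in Rps24 in the other cases. The signs were opposite in 7 pairs. The widest was 2.85, at the snoRNA gene Snord58b in Rpl17. Across gene medians r was 0.794 and rho 0.823 (n = 41 genes), and 31 genes were within 1. Rpl35 differed most, with −3.23 and −3.73 in replicate 1 against a single, non-overlapping cluster at 0.36 in replicate 2.

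**Figure D2:**
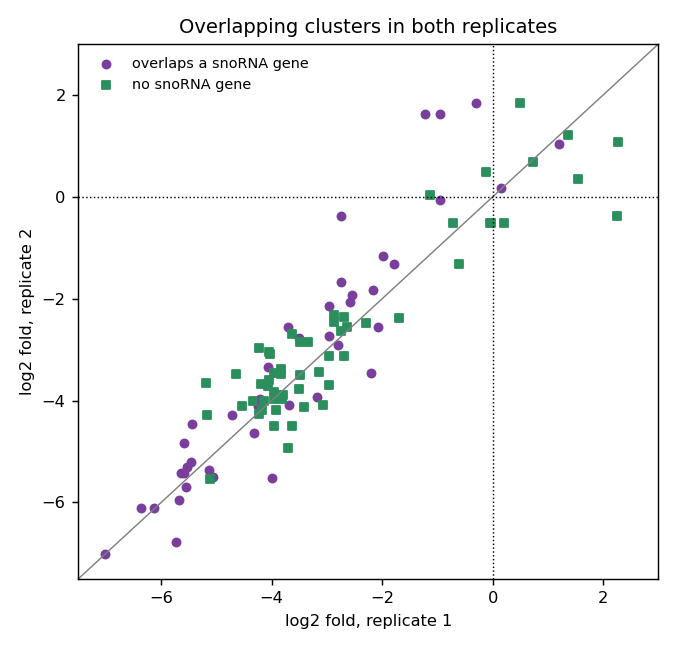
Log2 fold in replicate 1 (x axis) and in the overlapping cluster of replicate 2 (y axis) for 100 cluster pairs in member genes, with pairs over a snoRNA gene as circles and others as squares. The solid line marks equal folds and the dotted lines a fold of 0, and 86 pairs lie below 0 on both axes.

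Among clusters over snoRNA genes whose symbol gives a class, those over H/ACA genes had the lower median. The annotation places 42 snoRNA genes inside 20 members, and 37 of them had a cluster in both replicates. The gene table gives no strand for them. Clusters over a snoRNA gene were 45 of 146 (30.8%) in replicate 1 and 46 of 144 (31.9%) in replicate 2. Their median fold was −3.50 and −3.95, against −3.23 and −2.91 for the other member clusters. Clusters over H/ACA genes (symbols starting Snora) had medians of −5.57 (10 clusters) and −5.42 (9 clusters). They lay in 6 host genes, and Snora21 alone held 3 of them in replicate 1 and 4 in replicate 2. Those over C/D genes (Snord) had −2.78 in both replicates (16 and 15 clusters), and those over snoRNA genes whose symbol gives no class had −2.74 and −3.39 (19 and 22 clusters). All H/ACA clusters in members were at or below −3.18. Outside the members the same order was seen, with −4.73 and −4.97 over Snora genes and −3.18 and −2.20 over Snord genes. The classes were not tested against each other, since clusters of a host gene share a transcript and all clusters of a replicate share a lysate.

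The lowest clusters of all members lay over snoRNA genes. The cluster over LOC115488553 in Rpl30 had −7.01 in replicate 1 and −7.02 in replicate 2, while the other Rpl30 cluster had −3.15 and −3.44. Snora64 in Rps2 had −5.73 and −6.78, and Snora7a in Rpl32 had 2 clusters at −6.36 and −6.13 in replicate 1 and 1 at −6.11 in replicate 2. Snora21 in Rpl23 had −5.56 to −5.06 and −5.70 to −5.28, against medians of 0.62 and −0.38 for the rest of that gene. C/D genes lay nearer to or farther from the other clusters of their host. The 4 in Rpl13a, Snord32a to Snord35a, had −2.80 to −1.78 in replicate 1 and −2.91 to −1.33 in replicate 2, against medians of −3.32 and −3.35 for the rest of that gene. Snord21 in Rpl5 had −4.32 and −4.64, against 1.07 and 0.62 for the clusters of Rpl5 outside snoRNA genes. Not all snoRNA clusters were low: Gm22571 in Rpl4 had 1.21 and 1.03, and LOC115490074 in Rps20 had −0.31 and 1.84. Both folds of Gm22571 and the fold of 1.84 are values that at least 1000 clusters of a table share. Among 13 hosts with both kinds of cluster in both replicates, the snoRNA clusters had the lower median in both replicates in 7, the higher in both in 4, and the direction differed in 2. Without the snoRNA clusters the median over members was −3.37 in replicate 1 and −3.05 in replicate 2 (34 genes), close to the values with them.

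**Figure D3:**
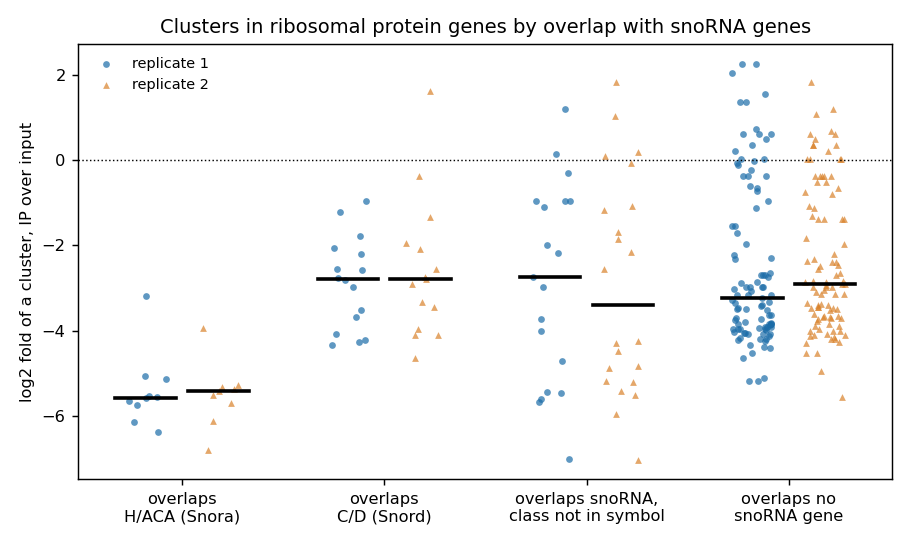
Log2 fold (immunoprecipitate over input) of every member cluster, by overlap with an annotated snoRNA gene and its class, in replicate 1 (circles, left) and replicate 2 (triangles, right). Black bars are medians, which are −5.57 and −5.42 over H/ACA genes and −3.23 and −2.91 where no snoRNA gene is overlapped.

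Low folds were found along the whole gene. Within 200 nt of the 5′ end of the span the median was −3.73 in replicate 1 (14 clusters) and −2.99 in replicate 2 (12 clusters). In the last 10% of the span it was −2.96 (15 clusters) and −2.88 (18 clusters), and between these it was −3.23 and −3.05. Clusters at the 5′ end lay mostly in small subunit genes. The first 200 nt held 3 of 84 large subunit clusters in replicate 1 and 2 of 79 in replicate 2 (3.57% and 2.53%), against 11 of 62 and 10 of 65 small subunit clusters (17.7% and 15.4%). The small subunit genes with a cluster there in both replicates were Rps3, Rps9, Rps14, Rps20, Rps23, Rps24 and Rps25, and the large subunit genes were Rpl28 and Rplp1. In Rps25 the cluster of replicate 1, at chr9:44407714-44407758, began at the annotated start shown above and had a fold of −3.64, and that of replicate 2 had −4.51. In Rps9 the clusters, chr7:3704047-3704063 and chr7:3704049-3704058, lay just after the pyrimidine run and had −3.91 and −3.89. In Rps24 the clusters centred 61 and 57 nt from the start had −2.64 and −2.55, and a second one in replicate 2, at chr14:24490816-24490865, had 0.03. Rpl28 was above 0 in both replicates, with 1.54 and 0.36 over chr7:4792995-4793148 and chr7:4792987-4793125. The tract of Rpl28 is of similar length to those of Rps24 and Rps9, and Rpl35, Rpl15 and Rpl14, with longer tracts, had no cluster within 200 nt of the start in either replicate.

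**Figure D4:**
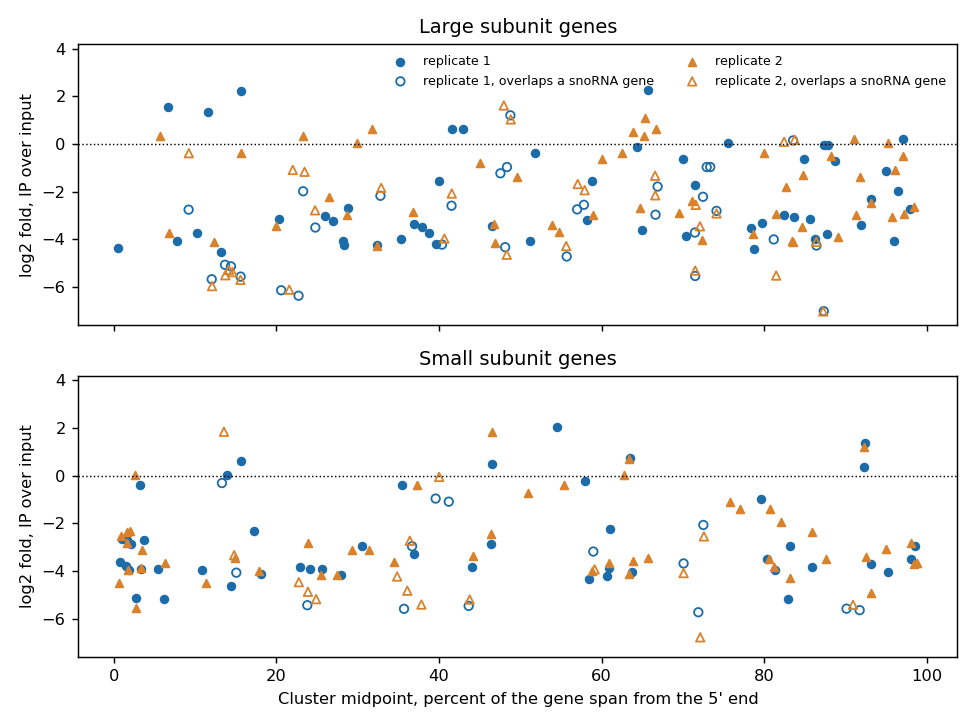
Log2 fold of each member cluster (y axis) against the position of its midpoint in percent of the gene span from the 5′ end (x axis), large subunit genes above and small subunit genes below. Circles are replicate 1 and triangles replicate 2, open where the cluster overlaps a snoRNA gene. Small subunit genes have 11 and 10 clusters in the first 200 nt, large subunit genes 3 and 2.

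Other lists of genes of translation were set beside the members. Of 35 further cytosolic ribosomal protein genes, 30 had clusters in both replicates, and their median was −2.88 in replicate 1 and −2.83 in replicate 2. Of 78 mitochondrial ribosomal protein genes, 65 had clusters, with −0.43 and −0.38. Ribosome assembly genes (22 of 27) had −0.38 and −0.67, and translation factor genes (66 of 75) had 0.10 and −0.14. The translation factor list was broad. It also held genes of enzymes that modify the factors, such as Eif2ak4 (1.04 and 1.12), Eef2k (0.99 and 0.79) and Eef2kmt (−0.30 and −0.38). Replicate 1 put 28 of its 66 gene medians below 0, and replicate 2 put 37 there. Factors below the median of the members included Eef1a1 (−4.00 and −3.68) and Eef2 (−3.90 and −3.36). Respiratory chain genes had −1.96 and −2.24 (93 of 100), and their expression was not measured here. Assembly factor genes such as Ndufaf2 (0.04 and 0.03) and Sdhaf2 (1.17 and 1.12) were counted with the subunit genes. In each replicate 77 of the 93 gene medians lay below 0. Subunit genes below the median of the members included Atp5b (−4.21 and −3.90) and Cox4i1 (−4.26 and −3.95). A reproducible cluster was found in 0 of 41 members, 1 of 30 further cytosolic genes, 6 of 65 mitochondrial ribosomal protein genes, 18 of 66 translation factor genes, 0 of 22 assembly genes and 7 of 93 respiratory chain genes. Among genes of the same span range as the members it was found in 88 of 2365 (3.72%). The lists also differed in clusters per gene, with a median of 9 and 10.5 in translation factor genes against 3 and 3 in members. These lists were not tested against each other.

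**Figure D5:**
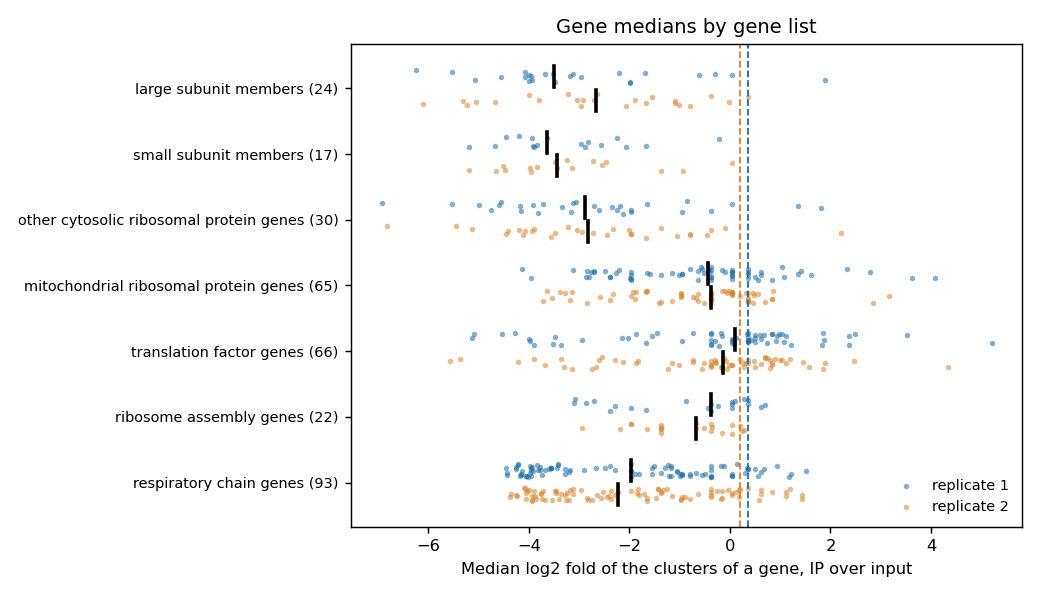
Median log2 fold of the clusters of each gene (points, spread vertically at random within a row for visibility) by gene list in replicate 1 (upper row of each list) and replicate 2 (lower row), with the number of genes that had clusters in both replicates. Black bars are medians of the list and dashed lines the medians over all 13694 genes, 0.36 and 0.20. The medians of large and small subunit members lie left of those of the other lists of translation genes, except the further cytosolic ribosomal protein genes, and single genes of the lists overlap.

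Whole heart mixes cell types, and these data cannot tell which cells the RNA of a member came from. Each fold compares an immunoprecipitate with the input of the same lysate, so it measures neither cell numbers nor RNA per cell. Markers of cardiomyocytes (8), fibroblasts (6), endothelial cells (5), macrophages (4) and erythroid cells (3) all had clusters in both replicates. Their median folds were −2.84 and −2.46 for cardiomyocyte markers, 1.10 and 1.07 for fibroblast markers, 1.59 and 1.36 for endothelial markers, 0.70 and 0.26 for macrophage markers and −0.96 and −1.07 for erythroid markers. Markers of a type did not all go the same way. Of the 8 cardiomyocyte markers 6 were below 0 in both replicates, while Myh6 (0.52 and 0.41) and Ryr2 (0.08 and 0.18) were above 0. Below 0 were 1 of 6 fibroblast markers in each replicate, and 0 of 4 macrophage markers in replicate 1 but 2 of 4 in replicate 2. All endothelial markers were above 0 and all erythroid markers below 0 in both replicates. The part of cell type in the folds of ribosomal protein genes was not tested.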

How the data were processed

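PTBP1 eCLIP was measured in 2 immunoprecipitates and 2 size-matched inputs of mouse heart. Per the submitters' processing notes, STAR 2.6.0c, cutadapt 2.7 and UMI-tools 0.5.1 were used, and hg38 is listed beside mm10. Not given in the sources used here are the cluster caller, its test and the handling of reads that match several places. Per the file headers, the authors deposited for each cluster of each replicate a log2 fold and a −log10 p-value. The −log10 p-value stops at 400 and the log2 fold compares each immunoprecipitate with its own input. The tables hold no reads or library totals, so the depth behind a fold is unknown and folds have no interval.

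Coordinates are mm10 (GRCm38), printed counting from 1. Gene spans came from RefSeq on GRCm38.p6, without exons. The strand of a member came from the promoter table for 39 genes and, for 9, from at least 3 clusters of which at least 90% were on 1 strand. It was not set for Rps27a. Overlap meant at least 1 nt. The computation used Python 3.11.15, pandas 2.3.3 and numpy 2.4.6, and was tested on simulated data. No hypothesis test was run. Members, gene lists and thresholds were chosen with earlier results of these data known. Genes named were the 6 highest and 6 lowest by the mean of both gene medians, the 5 with most clusters, those with the highest single fold, and Rpl5, Rpl11, Rplp0, Rplp1, Rps6, Rpsa, Rps27a, Rpl13a, Rpl22, Rpl38, Rpl3 and Rpl3l. The other genes illustrate a snoRNA, a role, a position or a replicate difference and were chosen after their values were seen. The alternatives covered the summary of a gene, the placement of clusters, snoRNA overlap, thresholds and leaving out a replicate.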

Additional observations from a re-analysis of the deposited data

How the results depend on the processing

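The low folds of the ribosomal protein genes kept their direction under every alternative run. The median over members, averaged over the replicates, was −3.24, lay between −3.24 and −2.93 under the 6 other settings, and was −3.51 or −2.97 from 1 replicate alone. Leaving out clusters that also lie in another gene could change nothing, as no member cluster did. Requiring the whole cluster inside the span kept 289 of 290 clusters and the same median, so these 2 settings show little about stability. The share of member clusters below 0 was 87.2%, was 86.1% to 88.4% from 1 replicate, and came to 84.7% when nucleotides were counted instead of clusters. Enriched clusters and members with a reproducible cluster were 0 at log2 fold thresholds of 1, 3 and 4, and enriched clusters also at a fold of 3 with no threshold on p, an alternative chosen after seeing the data. As no member cluster reached a fold above 2.26 or a −log10 p above 2.75, these counts could not differ and show nothing about stability. The difference between large and small subunit genes was 0.46, ranged from 0.14 to 0.77 over single replicates, and from 0.05 (at least 3 clusters per gene) to 0.89 (without snoRNA clusters), so its size depends on which genes and clusters enter. Without snoRNA clusters, in the lists too (chosen after seeing the data), the median over all genes was 0.36 and 0.20. No paired analysis was possible because each deposited fold already compares an immunoprecipitate with its own input. Unknown read numbers limit what any single fold shows.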

Other observations

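The number of pseudogenes named after the gene differed between the 5 members without a cluster. Pseudogenes annotated under other names were not counted. Rpl19 and Rpl10a have 12 and 4 pseudogenes named after them, Rps6 and Rps27a 4 and 3, and Rpl24 none. Rps12, with 23 such pseudogenes, the most of any member, had clusters in both replicates, 5 at a median of −2.07 in replicate 1 and 3 at −2.55 in replicate 2. All of them lay over its 3 snoRNA genes. Snora33 had −5.64 and −5.58 in replicate 1 and −5.42 in replicate 2, while Snord100 had −2.07 and −2.55 and LOC115487513 had −1.09 and −0.96 in replicate 1 and −0.05 in replicate 2. Rpl12, Rpl32, Rpl17 and Rpl7a likewise had clusters over snoRNA genes and nowhere else in either replicate.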
